A study of Mus musculus with 40 samples.

Results

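Transcripts of 44 genes of the lysosome, its proton pump and the transcription factors and GTPases that control both were followed in mouse extensor digitorum longus (EDL) muscle. The genes were taken by symbol from a written list whose rule uses no measured value, although the list was drawn up with earlier results of these data known. All 44 of them were among the 22844 genes of the deposited tables and among the 13543 genes that passed the filter on low counts. They comprise 3 MiT/TFE transcription factors, 17 genes of the vacuolar proton pump (V-ATPase; 7 of its membrane sector V0, 8 of its cytosolic sector V1 and 2 accessory subunits), 6 proteases, 3 membrane and channel proteins, 7 sugar hydrolases and saposin genes, 3 genes of lipid handling and 5 genes of the Rag and folliculin branch.

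The EDL is a fast-twitch muscle of the lower hindlimb. All mice carried floxed Tsc1 alleles (Tsc1fl/fl, strain label Tsc1tm1Djk/J). TSC1 restrains mTORC1, the rapamycin-sensitive kinase complex that promotes growth. TSCmKO mice also expressed a Cre recombinase that deletes Tsc1 in muscle fibers, whereas the control littermates (CON) had no Cre, so that other cell types of the muscle kept Tsc1 in both genotypes. Mice of 3 or 9 months of age were injected intraperitoneally with vehicle or rapamycin (RM) over 3 days before the muscle was taken, at 4 mg per kg on the labels. The study's text gives a higher daily dose, and the dose is therefore uncertain. This made 8 groups of 5 libraries, which are named by age, genotype and treatment (3mCON, 3mCON+RM, 3mTSCmKO, 3mTSCmKO+RM, and likewise at 9 months). By the study's text each sample was the muscle of a separate mouse, with 5 mice in a group, whereas the labels only number the libraries of a group.

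Lysosomes degrade protein, glycogen, lipid and whole organelles with hydrolases that need an acid lumen, and the V-ATPase provides that acid by coupling ATP hydrolysis in V1 to proton transport through V0. The lysosomal surface is also where mTORC1 is activated, by Rag GTPases that respond to amino acids. TFEB, TFE3 and MITF bind E-boxes of the CLEAR type in promoters of lysosomal genes. mTORC1 phosphorylates TFEB and TFE3 and holds them in the cytoplasm, a step for which RagC or RagD and the folliculin complex (FLCN with FNIP1 or FNIP2) are needed. In muscle fibers, lysosomes clear glycogen and damaged mitochondria delivered by autophagy.

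Promoter sequence is shown for 8 members because the core of the CLEAR element, the E-box CACGTG, links the transcription factors of the list to their target genes. RefSeq promoters (250 bases before to 50 after the start, GRCm38.p6) could be matched to 37 of the 44 members. The E-box was present in the promoters of 16 of these 37 members (43.2%). It was present in 1585 of the 16113 genes found in both the promoter set and the deposited tables (9.84%), and in 2349 of all 32851 promoters (7.15%). The longer palindrome TCACGTGA, which contains the E-box, was found in 7 members (18.9%) against 1.58% of genes. The same palindrome with G added before it and C after it was found in 0 of the 37 members against 87 of the 16113 genes (0.54%). Both motifs read the same on both strands. Capitals mark the E-box in the runs that follow, each written 5′ to 3′ in the direction of transcription.
Ctsl (cathepsin L), minus strand of chr13:64370739-64370768: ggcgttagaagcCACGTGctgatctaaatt
Ctsd (cathepsin D), minus strand of chr7:142387908-142387937: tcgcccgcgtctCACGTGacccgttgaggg
Gaa (acid alpha-glucosidase), plus strand of chr11:119267811-119267840: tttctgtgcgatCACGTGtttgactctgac
Fnip1 (folliculin partner), plus strand of chr11:54438092-54438121: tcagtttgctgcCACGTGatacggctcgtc
Rragc (RagC), plus strand of chr4:123917309-123917338: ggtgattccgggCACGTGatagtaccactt
Atp6v1a (catalytic V1 subunit A), minus strand of chr16:44139373-44139402: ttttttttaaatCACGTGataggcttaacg
Mcoln1 (lysosomal calcium channel), plus strand of chr8:3500462-3500491: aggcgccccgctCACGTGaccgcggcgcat
Lamp1 (lysosomal membrane glycoprotein), plus strand of chr8:13159088-13159160: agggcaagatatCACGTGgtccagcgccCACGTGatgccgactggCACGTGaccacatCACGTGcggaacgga

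The Lamp1 run of 73 bases ends at the base before the start and holds 4 E-boxes, whereas the other runs show 30 bases around the E-box nearest to the start. Those of Gaa, Fnip1, Rragc and Lamp1 lie upstream of any GENCODE vM21 gene model. Those of Ctsl, Ctsd and Mcoln1 overlap an annotated exon of the same gene, and that of Atp6v1a lies within that gene but in no exon. A match to these letters is a description of the promoter and not a measured binding site.

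Total counts ran from 8883870 to 35224669 per library, and a member had between 15 counts (Glb1) and 28563 counts (Ctsd) in a library, with 7 members under 100 counts in at least 1 library. Tsc1, the targeted gene, was at 51.3 to 134 CPM (the count of a gene relative to the library total, scaled between libraries by the TMM method) in vehicle-treated CON libraries and at 24.4 to 35.8 CPM in vehicle-treated TSCmKO libraries. The Tsc1 values of all TSCmKO libraries lay below those of all CON libraries, which fits the labels. Remaining reads can come from other cell types or from exons outside the deletion. The 12 muscle fiber markers summed to between 113556 and 236952 CPM per library. Mean insert size on the labels was 175 to 239 nt for the 3-month libraries and between 223 and 308 nt for the 9-month ones, so that age and insert size cannot be fully told apart. 9mTSCmKO replicate 1 (mean correlation 0.937 with the other libraries of its group) and 9mTSCmKO+RM replicate 1 (0.965) had the lowest correlations of their own groups, and results that rest on them are also given without them. 9mTSCmKO replicate 3 had a mean correlation of 0.961, and leaving it out ended 11 of the 122 member calls over all comparisons, more than any other library. Muscle was measured in bulk, where fewer cells of a type and less RNA per cell cannot be told apart.

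Levels can be compared between genes on the TPM scale, which corrects for transcript length. In 3mCON muscle the most abundant members were Ctsd, the main aspartic protease of the lysosome, at 554 TPM, Psap, the precursor of the saposins that help degrade sphingolipids, at 505 TPM, Lamp1 at 458 TPM and Gaa, which degrades lysosomal glycogen, at 251 TPM (means of 5 libraries). The lowest were Glb1 (beta-galactosidase) at 2.42 TPM, Gla (alpha-galactosidase A) at 2.83 TPM and Naglu, which cleaves heparan sulfate, at 4.33 TPM. Among the transcription factors Tfeb was at 57.3 TPM, above Mitf at 9.95 TPM and Tfe3 at 7.93 TPM, and of the Rag pair Rragd was at 182 TPM against 30.0 TPM for Rragc. Together the members took 0.500 ± 0.0234% of all counts in 3mCON and 0.488 ± 0.0248% in 9mCON, against 0.648 ± 0.0318% in 3mTSCmKO and 0.648 ± 0.0562% in 9mTSCmKO (SD, n = 5). After rapamycin the share was 0.536 ± 0.0221% in 3mTSCmKO+RM and 0.548 ± 0.0172% in 9mTSCmKO+RM. The lowest vehicle-treated TSCmKO library (0.601%) lay above the highest of all CON libraries (0.537%).

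**Figure D1:**
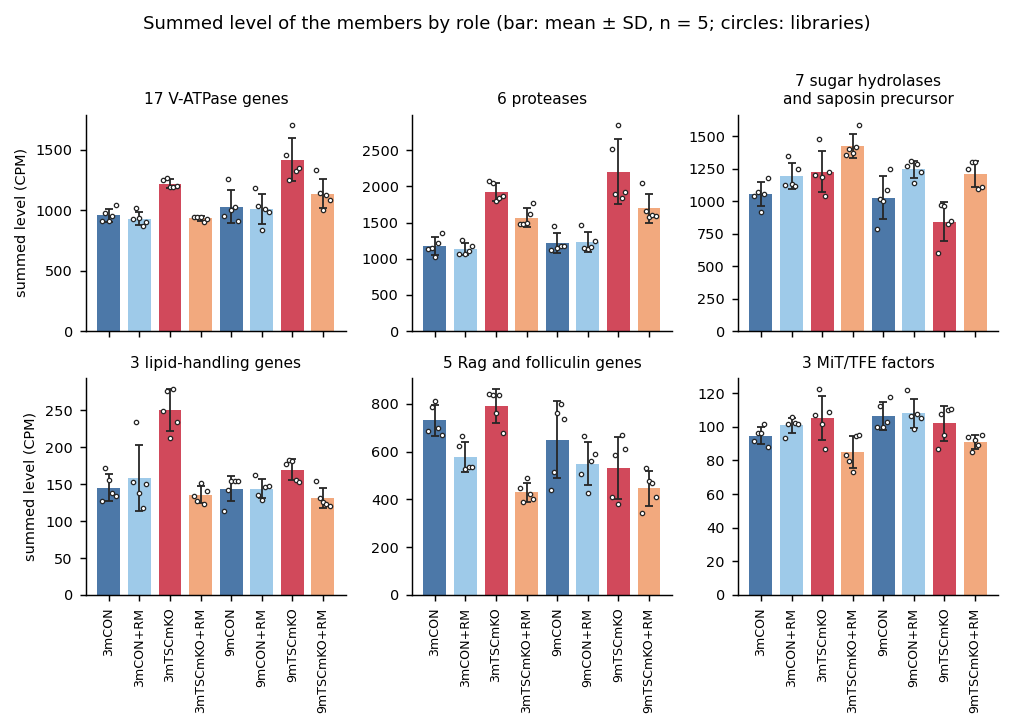
Summed level (y axis, CPM) of the members of 6 role sets in the 8 groups (x axis), with bars for the mean, error bars for the SD and circles for the 5 libraries of each group. The V-ATPase genes and the proteases stood highest in vehicle-treated TSCmKO at both ages (1220 and 1419 CPM for the V-ATPase genes; 1925 and 2204 CPM for the proteases), whereas the sugar hydrolase set was highest in 3mTSCmKO+RM (1427 CPM).

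Loss of Tsc1 was accompanied by higher levels of pump and protease genes. At 9 months 15 of the 44 members were higher and 5 lower in TSCmKO than in CON (edgeR quasi-likelihood test, Benjamini-Hochberg adjusted p under 0.05), 20 in all. Over all genes tested, 37.9% changed, 19.1% upwards and 18.9% downwards. The largest rises were those of Ctsl, Atp6v1h, Atp6v1g1, Atp6v0e, Atp6ap2 and Ctsd, and the falls were those of Flcn, Tfe3, Psap, Ctsf and Mcoln1. Fitted on only the 2 groups compared, 12 members were higher and 1 lower, and of the falls only that of Flcn passed. At 3 months 13 members were higher and 1 lower (all genes: 19.8% changed, 11.4% upwards and 8.32% downwards), led by Npc1, Ctsd, Ctsl, Atp6v0e, Atp6v1g1 and Ctsb, with Flcn as the fall. The median log2 fold change of the members was 0.19 at 9 months and 0.22 at 3 months, against medians over all genes of -0.02 at both ages. There were 9 members that rose at both ages (Atp6v0c, Atp6v0e, Atp6v1d, Atp6v1g1, Ctsb, Ctsd, Ctsl, Ctsz and Hexa), 9 of the 15 at 9 months and 9 of the 13 at 3 months. The share of all genes that rose at both ages was not counted, so that this overlap has no baseline here. Markers of several cell types were lower in 9mTSCmKO than in 9mCON as well. Of the 12 muscle fiber markers 7 were lower (113556 to 131775 CPM in sum against 178261 to 197520.0 CPM, without overlap). Of 8 fibroblast markers 6 were lower (352 to 1201 CPM against 1056 to 2108 CPM), and of 6 tendon markers 4 (59.3 to 133 CPM against 88.0 to 525 CPM). Endothelial (Tek, log2 -0.58, and Tie1, -0.47), adipocyte (Lep, -3.14, and Adipoq, -1.84) and Schwann cell markers (S100b, -0.83, and Sox10, -0.74) were among the falls too. No marker of these last lists was called higher. At 3 months 2 of 12 muscle fiber markers and 1 of 6 tendon markers were lower. Their part in the member results was not tested.

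Rapamycin over 3 days lowered many of these genes in TSCmKO muscle and raised a few hydrolase genes. In 9mTSCmKO 13 members were lower and 6 higher after rapamycin (all genes: 32.6% changed, 15.8% upwards and 16.8% downwards), the largest falls being those of Ctsl, Atp6v1h, Lipa, Atp6v1g1, Atp6v1e1 and Atp6v1a and the largest rises those of Gaa, Hexa, Atp6v0d1, Psap, Lamp1 and Ctsf. Without 9mTSCmKO replicate 1 and 9mTSCmKO+RM replicate 1 the split at 9 months was 2 higher and 18 lower, and on only the groups compared it was 2 higher and 10 lower. In 3mTSCmKO 16 members were lower and 3 higher (all genes: 23.6% changed, 10.6% upwards and 13% downwards), with Npc1, Fnip1, Ctsl, Atp6v1g1, Rragd and Atp6v1e1 as the largest falls and Gaa, Hexa and Ctsf as the rises. With upper-quartile scaling the share of upward changes over all genes in this comparison was 55.7% in place of 44.9%, whereas the members split into 4 higher and 16 lower. The median log2 change of the members was -0.19 at 9 months and -0.26 at 3 months (all genes: -0.04 and 0.01). Of the members that fell, 8 did so at both ages (Atp6v0e, Atp6v1a, Atp6v1d, Atp6v1e1, Atp6v1g1, Atp6v1h, Ctsl and Npc1), 8 of the 13 at 9 months and 8 of the 16 at 3 months. All 3 that rose at 3 months also rose at 9 months. How many of all genes fell or rose with rapamycin at both ages was not counted, so that these overlaps have no baseline here. Muscle fiber markers rose in the same comparisons, 8 of 12 higher and 1 lower in 9mTSCmKO (171930.0 to 211348 CPM in sum after rapamycin against 113556 to 131775 CPM with vehicle) and 7 higher and 2 lower in 3mTSCmKO, and their part in the member results was not tested. The comparisons by genotype and by rapamycin share the vehicle-treated TSCmKO libraries, so that their values are given side by side and not set against each other.

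**Figure D2:**
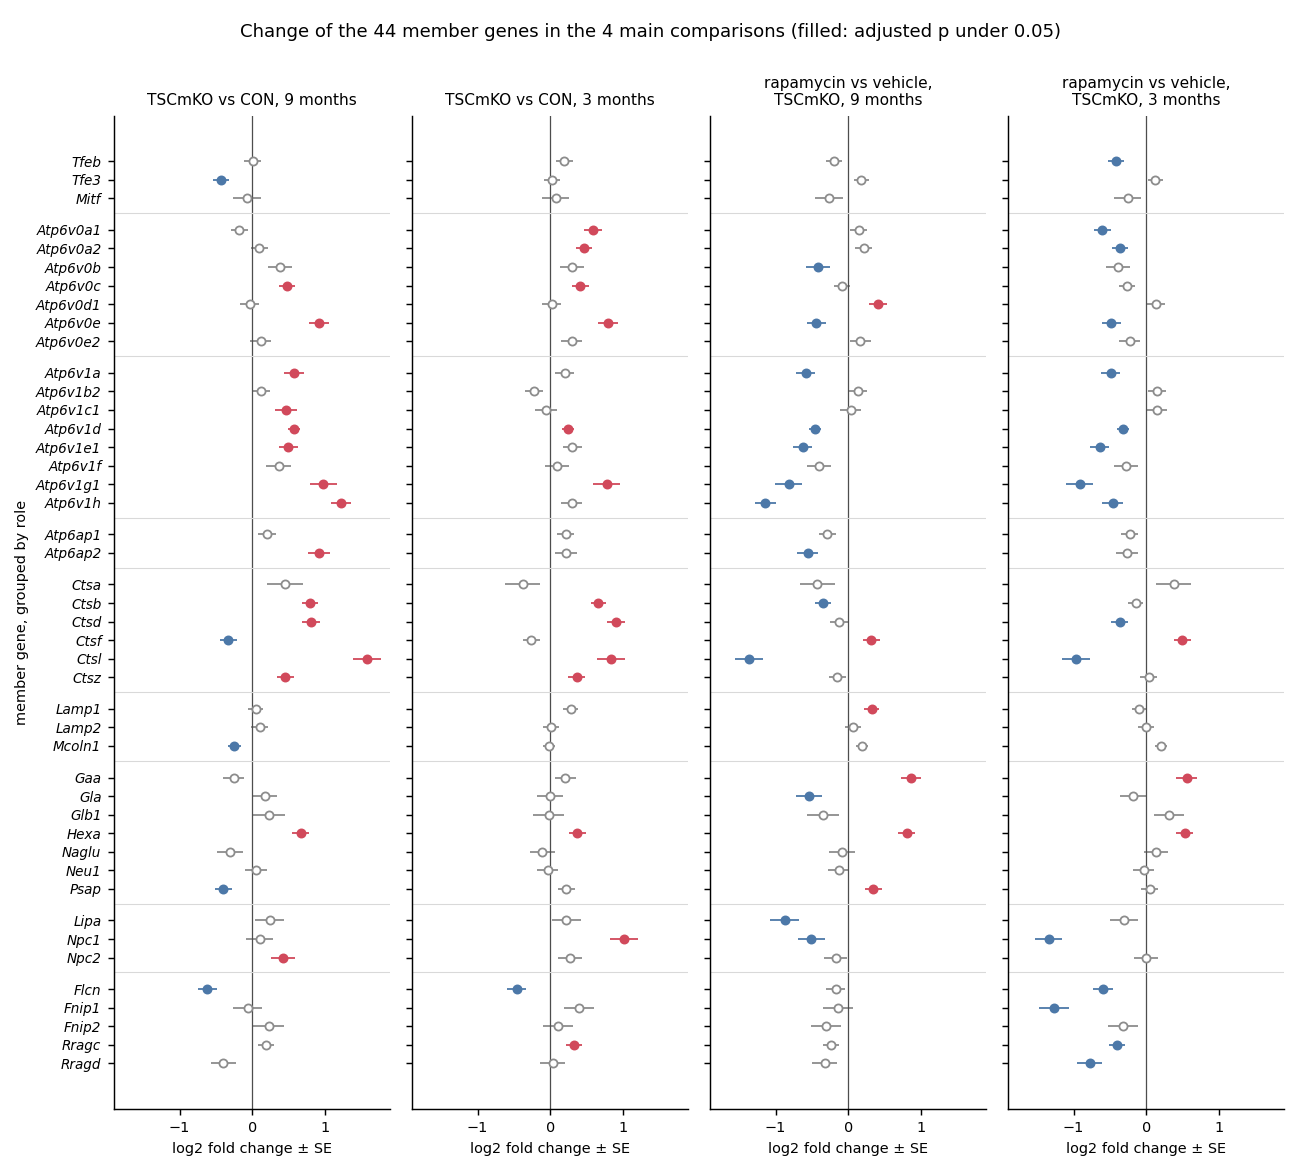
Log2 fold change with its standard error (x axis) of the 44 members (y axis, grouped by role) in the comparisons of TSCmKO with CON and of rapamycin with vehicle in TSCmKO, at 9 and 3 months. Filled points passed an adjusted p under 0.05 (red higher, blue lower) and open grey points did not. V1 sector genes lie mostly to the right in the genotype panels and to the left in the rapamycin panels, where Gaa and Hexa lie to the right.

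In CON muscle rapamycin had fewer calls. At 9 months Gaa, Hexa and Lamp1 were higher and Lipa, Flcn and Tfe3 lower in 9mCON+RM than in 9mCON, 6 members in all (all genes: 11.8% changed, 5.03% upwards and 6.82% downwards). The calls of Lamp1, Lipa, Flcn and Tfe3 were lost without the filter on low counts and on only the groups compared, and Gaa and Hexa alone passed in those fits. At 3 months 0 members passed in edgeR's test (all genes: 0.679%), 5 had an unadjusted p under 0.05 and DESeq2 called 1. Of the 13 tested macrophage markers, 10 were lower in 9mCON+RM as well, with summed levels of 21.6 to 57.6 CPM against 72.7 to 201 CPM in 9mCON. All 8 fibroblast markers were lower as well, at 172 to 798 CPM against 1056 to 2108 CPM, and 5 of 6 tendon markers were lower, at 32.3 to 71.6 CPM against 88.0 to 525 CPM. Of the 12 muscle fiber markers 3 were higher and 0 lower, and their sum did not overlap between the groups (229983 to 236952 CPM against 178261 to 197520.0 CPM). No marker of these lists was at 0 in all libraries, and the part of these cell types in the member results was not tested. The calls of Lamp1 and Lipa in 9mCON were each lost in many of the 10 fits that left out 1 library, 8 for Lamp1 and 6 for Lipa, with adjusted p up to 0.169 and 0.128 without 9mCON+RM replicate 1.

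Of the MiT/TFE factors, Tfeb (ENSMUSG00000023990, chr17:47737030-47792419 of GRCm38) encodes the best known activator of lysosomal genes. Tfeb was at 58.8, 66.1, 64.4, 69.3 and 59.7 CPM in the 5 libraries of 3mCON, against 74.7, 89.5, 67.0, 58.5 and 75.2 CPM in 3mTSCmKO. After rapamycin the 3mTSCmKO+RM libraries were at 52.4, 48.5, 43.8, 65.2 and 62.7 CPM. At 9 months it was at 71.9, 87.0, 63.2, 67.1 and 74.4 CPM in 9mCON, against 61.0, 77.3, 72.6, 77.5 and 76.5 CPM in 9mTSCmKO. The 9mTSCmKO+RM libraries were at 75.8, 57.2, 58.3, 62.3 and 64.9 CPM. The groups overlapped in every one of these comparisons. Errors of log2 fold changes are standard errors here and in the following. Tfeb did not pass between genotypes at 9 months (log2 fold change 0.01 ± 0.11, adjusted p = 0.977) or at 3 months (0.20 ± 0.11, adjusted p = 0.242). It fell with rapamycin in 3mTSCmKO (-0.42 ± 0.11, adjusted p = 0.00547) but did not pass in 9mTSCmKO (-0.20 ± 0.11, adjusted p = 0.184). The difference between the rapamycin effects in TSCmKO and CON at 3 months was -0.52 ± 0.16 (adjusted p = 0.0627). In CON it was 0.11 ± 0.11 at 9 months (adjusted p = 0.604), with 0.10 ± 0.11 at 3 months (adjusted p = 0.919). Between the genotypes under rapamycin it was -0.30 ± 0.11 (adjusted p = 0.0531) and -0.33 ± 0.11 (adjusted p = 0.0609).

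Tfe3 (ENSMUSG00000000134, chrX:7762560-7775202), its close relative, was lower in TSCmKO than in CON at 9 months. It was at 13.5, 14.7, 15.9, 14.4 and 17.9 CPM in 9mCON, against 12.1, 11.4, 14.1, 10.8 and 10.8 CPM in 9mCON+RM. Tfe3 stood at 11.4, 9.83, 10.8, 11.3 and 13.5 CPM in 9mTSCmKO, against 11.8, 11.5, 15.3, 11.4 and 14.5 CPM in 9mTSCmKO+RM. The lowest 9mCON library lay just above the highest 9mTSCmKO library, and the other groups overlapped. The fall with genotype was -0.43 ± 0.11 on the log2 scale (adjusted p = 0.00183, and 0.0655 on only the groups compared) at 9 months, whereas the value at 3 months was 0.03 ± 0.11 (adjusted p = 0.893). The difference between the ages was -0.45 ± 0.15 (adjusted p = 0.0765). Rapamycin lowered Tfe3 in 9mCON (-0.37 ± 0.11, adjusted p = 0.0214) and left it at 0.18 ± 0.11 in 9mTSCmKO (adjusted p = 0.205). The difference between these effects passed the test (0.55 ± 0.15, adjusted p = 0.0299). Both calls were lost without the filter on low counts (adjusted p = 0.0745 and 0.0722) and on only the groups compared (0.125 and 0.146). The call in 9mCON was lost without 9mCON replicate 5 (adjusted p = 0.0759) or 9mCON+RM replicates 2, 4 or 5 (0.0543 to 0.0657). That difference was lost in 7 of 20 fits that left out 1 library (adjusted p up to 0.0774, without 9mCON replicate 5). At 3 months all 4 groups overlapped, with means from 13.2 ± 0.638 CPM in 3mCON to 14.7 ± 1.86 CPM in 3mTSCmKO+RM, and rapamycin gave 0.13 ± 0.11 in 3mTSCmKO (adjusted p = 0.433) and 0.14 ± 0.11 in 3mCON (adjusted p = 0.807). Mitf, known as the regulator of melanocytes and osteoclasts, passed in none of the 13 comparisons. Its log2 fold changes between genotypes were -0.07 ± 0.19 at 9 months and 0.07 ± 0.19 at 3 months, and those with rapamycin -0.27 ± 0.19 in 9mTSCmKO, -0.26 ± 0.19 in 3mTSCmKO, -0.07 ± 0.19 in 9mCON and 0.00 ± 0.19 in 3mCON.

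Of the 5 Rag and folliculin genes, 4 fell after rapamycin in 3mTSCmKO (all genes: 13%). In TSCmKO 1 was lower at 9 months, a share near that of all genes (18.9%), and 1 was higher and 1 lower at 3 months (all genes: 11.4% and 8.32%). Flcn (ENSMUSG00000032633, chr11:59791408-59810016) encodes folliculin, which stimulates GTP hydrolysis on RagC and RagD. Flcn was at 60.9, 67.9, 77.8, 64.9 and 87.1 CPM in 3mCON, against 59.9, 63.2, 52.9, 47.1 and 45.8 CPM in 3mCON+RM. Flcn stood at 49.4, 60.1, 44.6, 55.8 and 50.1 CPM in 3mTSCmKO, against 35.0, 36.2, 41.2, 28.5 and 31.3 CPM in 3mTSCmKO+RM. At 9 months the values were 58.0, 64.2, 88.9, 77.3 and 70.5 CPM in 9mCON, against 48.4, 60.5, 46.2, 47.9 and 60.1 CPM in 9mCON+RM. Flcn stood at 34.2, 46.5, 44.3, 52.5 and 56.1 CPM in 9mTSCmKO, against 36.1, 49.7, 45.1, 38.6 and 37.3 CPM in 9mTSCmKO+RM. TSCmKO libraries lay below CON libraries without overlap at both ages in the vehicle groups, and at 3 months also in the rapamycin groups. Flcn was 1.54-fold lower at 9 months (log2 -0.62 ± 0.13, adjusted p = 3.03e-04) and 1.38-fold lower at 3 months (-0.46 ± 0.13, adjusted p = 0.00984). Rapamycin lowered it further in 3mTSCmKO (-0.59 ± 0.13, adjusted p = 8.50e-04), with -0.18 ± 0.13 in 9mTSCmKO (adjusted p = 0.326), -0.45 ± 0.13 in 9mCON (adjusted p = 0.0221) and -0.42 ± 0.13 in 3mCON (adjusted p = 0.173). Under rapamycin the genotypes differed by -0.64 ± 0.13 at 3 months (adjusted p = 9.08e-04), with -0.35 ± 0.13 at 9 months (adjusted p = 0.0595). The call in 9mCON was lost without 9mCON replicate 3 (adjusted p = 0.0825), 9mCON+RM replicate 1 (0.0657) or 9mCON+RM replicate 4 (0.0560).

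Fnip1 (ENSMUSG00000035992, chr11:54438199-54518235), the partner of folliculin whose promoter is shown above, had its largest change with rapamycin in 3mTSCmKO. It was at 170.2, 224, 240.3, 166 and 194 CPM in 3mCON, against 159.6, 179.7, 98.0, 106 and 132 CPM in 3mCON+RM. Fnip1 stood at 276, 290.3, 246, 281 and 213 CPM in 3mTSCmKO, against 93.3, 75.8, 146, 119 and 107 CPM in 3mTSCmKO+RM. At 9 months Fnip1 was at 102, 114, 175, 196 and 194 CPM in 9mCON, against 113, 182, 78.7, 92.2 and 121 CPM in 9mCON+RM. Fnip1 stood at 143, 144, 128, 163 and 170.1 CPM in 9mTSCmKO, against 80.4, 158, 167, 128 and 142 CPM in 9mTSCmKO+RM. The 3mTSCmKO and 3mTSCmKO+RM libraries did not overlap, whereas the 9-month groups overlapped. The fall in 3mTSCmKO was 2.41-fold (log2 -1.27 ± 0.21, adjusted p = 1.38e-05). The values were -0.56 ± 0.21 in 3mCON (adjusted p = 0.294), -0.41 ± 0.21 in 9mCON (adjusted p = 0.210) and -0.15 ± 0.20 in 9mTSCmKO (adjusted p = 0.615). The genotype difference was 0.39 ± 0.20 at 3 months (adjusted p = 0.184), with -0.06 ± 0.20 at 9 months (adjusted p = 0.835). Fnip2, the second partner, passed in none of the 13 comparisons, with 0.23 ± 0.21 and 0.11 ± 0.21 between genotypes at 9 and 3 months and -0.31 ± 0.21 and -0.32 ± 0.20 with rapamycin in TSCmKO at 9 and 3 months.

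Rragd (ENSMUSG00000028278, chr4:32983037-33022180) and Rragc (ENSMUSG00000028646, chr4:123917446-123936997) encode the GTPases RagD and RagC. Rragd was at 462, 442, 421, 450.2 and 368 CPM in 3mTSCmKO and, after rapamycin, at 278, 241, 261, 239.7 and 227 CPM in 3mTSCmKO+RM. In CON it was at 415, 450.1, 447, 431 and 352 CPM in 3mCON, against 362, 382, 340.4, 345 and 320.1 CPM in 3mCON+RM. At 9 months the values were wide, with 245, 302, 459, 479.6 and 431 CPM in 9mCON, against 313, 392, 272, 387 and 375 CPM in 9mCON+RM. Rragd stood at 198, 348, 166, 405 and 336 CPM in 9mTSCmKO, against 189, 283, 229, 268 and 193 CPM in 9mTSCmKO+RM. All 3mTSCmKO+RM libraries lay below all other 3-month libraries, and the vehicle groups overlapped at both ages. Rragd fell 1.72-fold with rapamycin in 3mTSCmKO (log2 -0.78 ± 0.17, adjusted p = 8.22e-04), with -0.32 ± 0.17 in 9mTSCmKO (adjusted p = 0.153), -0.26 ± 0.17 in 3mCON and -0.14 ± 0.17 in 9mCON (adjusted p = 0.746 and 0.678). Between genotypes it gave 0.03 ± 0.17 at 3 months (adjusted p = 0.924), with -0.40 ± 0.17 at 9 months (adjusted p = 0.0654). Under rapamycin it was lower in TSCmKO at 9 months (-0.58 ± 0.17, adjusted p = 0.0134).

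Rragc was at 30.7, 33.7, 35.4, 32.1 and 29.0 CPM in 3mCON, 45.6, 34.9, 40.7, 42.0 and 37.9 CPM in 3mTSCmKO and, after rapamycin, 33.2, 29.7, 35.9, 27.3 and 26.1 CPM in 3mTSCmKO+RM. All but 1 of the 3mTSCmKO libraries lay above all 3mCON libraries, with 34.9 CPM in replicate 2 against 35.4 CPM in 3mCON replicate 3. Rragc rose with genotype at 3 months (0.32 ± 0.11, adjusted p = 0.0312) and fell with rapamycin there (-0.40 ± 0.11, adjusted p = 0.00547), whereas the 9-month values were 0.18 ± 0.11 (adjusted p = 0.185) and -0.24 ± 0.11 (adjusted p = 0.0921). The rise was lost without 3mCON replicates 1, 4 or 5 or 3mTSCmKO replicate 1 (adjusted p up to 0.0849). In CON, rapamycin gave -0.26 ± 0.11 at 9 months (adjusted p = 0.123), with -0.10 ± 0.11 at 3 months (adjusted p = 0.924). In sum over the 5 genes of this branch, 3mTSCmKO+RM stood at 430.1 ± 40.3 CPM and 3mTSCmKO at 791 ± 71.7 CPM.

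**Figure D3:**
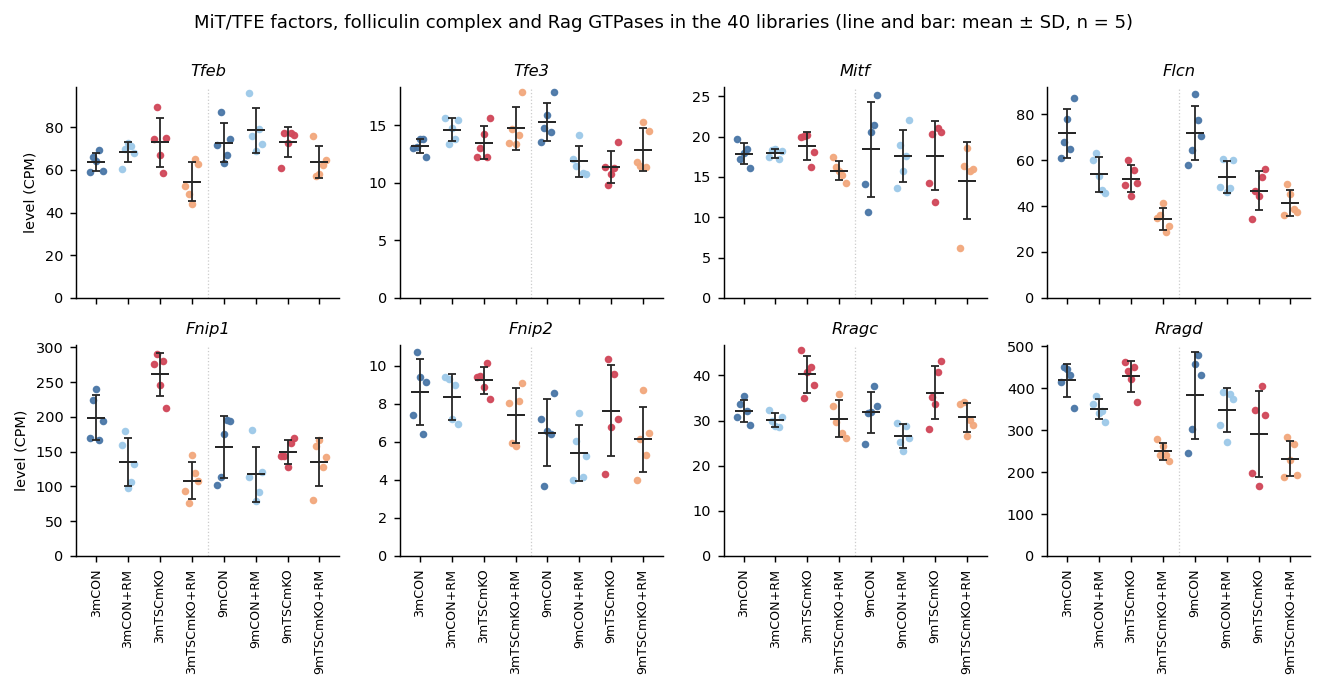
Level (y axis, TMM-scaled CPM from 0) of the MiT/TFE factors, the folliculin complex and RagC and RagD in the 8 groups (x axis), with a dot for each library and the mean with its SD over 5 libraries. Flcn lies lower in TSCmKO than in CON at both ages, and Fnip1 and Rragd are lowest in 3mTSCmKO+RM among the 3-month groups.

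Many V-ATPase genes were higher with loss of Tsc1 and lower after rapamycin in TSCmKO. Of the 17 genes, 9 were higher and 0 lower in TSCmKO at 9 months and 6 were higher and 0 lower at 3 months, with median log2 fold changes of 0.46 and 0.29. Over all genes 19.1% were higher at 9 months and 11.4% at 3 months. After rapamycin 8 were lower and 1 higher in 9mTSCmKO and 8 lower and 0 higher in 3mTSCmKO (medians -0.40 and -0.32), where 16.8% and 13% of all genes were lower. In CON 0 passed at either age, where 11.8% of all genes changed at 9 months and 0.679% at 3 months. The V1 sector, which hydrolyses ATP, held most of the changes at 9 months, with 6 of 8 genes higher in TSCmKO and 5 of 8 lower after rapamycin. At 3 months 2 of 8 V1 genes were higher in TSCmKO and 5 of 8 lower after rapamycin. The V0 sector, which carries the protons, had 2 of 7 genes higher at 9 months, a share not far above that of all genes, and 4 of 7 at 3 months. After rapamycin 2 of 7 V0 genes were lower and 1 higher in 9mTSCmKO, and 3 were lower and 0 higher in 3mTSCmKO. Summed over the 17 genes, the level was 1419 ± 177 CPM in 9mTSCmKO against 1031 ± 134 CPM in 9mCON and 1138 ± 120 CPM in 9mTSCmKO+RM, where single libraries overlapped. At 3 months it was 1220 ± 35.7 CPM in 3mTSCmKO against 959 ± 54.7 CPM in 3mCON and 932 ± 18.8 CPM in 3mTSCmKO+RM, and the 3mTSCmKO libraries (1189 to 1263 CPM) lay above those of both other groups.

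The pump gene with the largest change was Atp6v1h (ENSMUSG00000033793, chr1:5070018-5162529), which encodes the regulatory subunit H of V1. It was at 17.8, 25.9, 21.4, 24.1 and 19.1 CPM in 9mCON, against 57.0, 46.5, 69.7, 44.0 and 35.0 CPM in 9mTSCmKO. Atp6v1h stood at 21.7, 24.4, 22.2, 24.1 and 22.0 CPM in 9mTSCmKO+RM, against 22.6, 20.8, 20.0, 20.1 and 19.5 CPM in 9mCON+RM. At 3 months Atp6v1h was at 19.5, 19.9, 21.9, 17.3 and 23.2 CPM in 3mCON, against 30.2, 21.2, 21.5, 32.6 and 19.3 CPM in 3mTSCmKO. Atp6v1h stood at 16.4, 18.3, 21.7, 19.0 and 15.1 CPM in 3mTSCmKO+RM, against 21.2, 22.2, 20.6, 17.7 and 18.3 CPM in 3mCON+RM. All 9mTSCmKO libraries lay above all other libraries of the series, and at 3 months 2 of the 5 3mTSCmKO libraries stood above the rest. Atp6v1h was 2.33-fold higher in TSCmKO at 9 months (log2 1.22 ± 0.14, adjusted p = 8.45e-09) with 0.30 ± 0.14 at 3 months (adjusted p = 0.146). The effects at both ages differed by 0.92 ± 0.20 (adjusted p = 0.00426). Rapamycin lowered it 2.21-fold in 9mTSCmKO (-1.14 ± 0.14, adjusted p = 9.15e-08) and 1.38-fold in 3mTSCmKO (-0.47 ± 0.14, adjusted p = 0.0138), with -0.07 ± 0.14 in 9mCON (adjusted p = 0.824). The fall in 3mTSCmKO was lost without 3mTSCmKO replicates 1 or 4 (adjusted p up to 0.0814). The difference between the effects of rapamycin in TSCmKO and CON at 9 months was -1.07 ± 0.20 (adjusted p = 0.00127). Under rapamycin the genotypes differed by 0.15 ± 0.14 at 9 months (adjusted p = 0.529).

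Atp6v1g1, a subunit of the peripheral stalk, rose by 0.98 on the log2 scale at 9 months (SE 0.19, adjusted p = 6.16e-05) and by 0.78 at 3 months (SE 0.19, adjusted p = 0.00205). It fell with rapamycin by 0.82 (adjusted p = 7.84e-04) and 0.91 (adjusted p = 2.87e-04). Its stalk partner Atp6v1e1 rose at 9 months (0.49 ± 0.13) and fell with rapamycin in 9mTSCmKO (-0.63 ± 0.13, adjusted p = 3.12e-04) and 3mTSCmKO (-0.64 ± 0.13, adjusted p = 3.19e-04). The rise of Atp6v1e1 was lost on only the groups compared (adjusted p = 0.0550). Atp6v1a, the catalytic subunit, followed with 0.58 ± 0.13 at 9 months and -0.59 ± 0.13 after rapamycin (adjusted p = 7.68e-04). The rotor subunit Atp6v1d rose at both ages (0.57 ± 0.09 and 0.24 ± 0.09) and fell with rapamycin at both ages (-0.46 ± 0.08 and -0.32 ± 0.08). Its response to rapamycin at 9 months differed between the genotypes (-0.46 ± 0.12, adjusted p = 0.0182), a call that was lost without the filter on low counts (adjusted p = 0.0533) and on only the groups compared (0.140). Atp6v1c1 rose at 9 months (0.46 ± 0.15), whereas Atp6v1b2 and Atp6v1f did not pass in the genotype or rapamycin comparisons. The rise of Atp6v1d at 3 months was lost without 3mCON replicate 3 or 3mTSCmKO replicates 1 or 5 (adjusted p up to 0.0922) and that of Atp6v1c1 without 9mTSCmKO replicate 3 (adjusted p = 0.0549).

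In V0, Atp6v0e, a small membrane subunit, rose by 0.92 (SE 0.14, adjusted p = 1.32e-06) at 9 months and by 0.80 (SE 0.14, adjusted p = 2.92e-05) at 3 months, fell with rapamycin at both ages (-0.44 ± 0.14 and -0.48 ± 0.14) and was higher in TSCmKO than in CON under rapamycin at 9 months (0.83 ± 0.14, adjusted p = 2.28e-05). Its fall in 9mTSCmKO was lost without 9mTSCmKO replicate 3 (-0.28, adjusted p = 0.0975) or 9mTSCmKO+RM replicate 3. Atp6v0c, which forms the proton-carrying ring, rose at both ages (0.48 ± 0.11 and 0.42 ± 0.11). The a subunits Atp6v0a1 and Atp6v0a2 rose at 3 months (0.59 ± 0.12 and 0.47 ± 0.11) and fell with rapamycin there (-0.61 ± 0.12 and -0.36 ± 0.11), with -0.18 ± 0.12 and 0.10 ± 0.12 at 9 months. For Atp6v0a1 the genotype effect differed between the ages (-0.77 ± 0.17, adjusted p = 0.00471), and its response to rapamycin at 3 months differed between the genotypes (-0.62 ± 0.17, adjusted p = 0.0279), the latter being lost in 4 of 20 fits that left out 1 library (adjusted p up to 0.0811). Atp6v0d1, which joins the ring to the rotor, rose with rapamycin in 9mTSCmKO (0.41 ± 0.13, adjusted p = 0.0137), a call that was lost without 9mTSCmKO replicate 1 (0.25, adjusted p = 0.0961). Of the accessory subunits, Atp6ap2 (the prorenin receptor) rose at 9 months (0.92 ± 0.15, adjusted p = 7.07e-06), fell with rapamycin (-0.56 ± 0.15) and was still higher in TSCmKO under rapamycin (0.70 ± 0.15, adjusted p = 7.42e-04), while Atp6ap1 passed in none of the main comparisons.

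Among the proteases Ctsl (ENSMUSG00000021477, chr13:64359337-64370890), a cysteine protease of the lysosome, had the largest rise of all members. Ctsl was at 138, 186, 135, 113 and 101 CPM in 9mCON, against 549, 279.7, 614, 278 and 297 CPM in 9mTSCmKO. Ctsl stood at 217, 136, 123, 152 and 154 CPM in 9mTSCmKO+RM, against 157, 103, 89.4, 88.9 and 121 CPM in 9mCON+RM. At 3 months Ctsl was at 134, 130.4, 104, 134 and 157 CPM in 3mCON, against 302, 228, 232, 178 and 240.3 CPM in 3mTSCmKO. Ctsl stood at 119, 117, 122, 121 and 124 CPM in 3mTSCmKO+RM, against 105, 111, 108, 107 and 107 CPM in 3mCON+RM. At both ages the vehicle-treated TSCmKO libraries lay above those of CON and of TSCmKO+RM without overlap, and at 9 months 2 of the 5 stood far above the other 3. Ctsl was 3.00-fold higher at 9 months (log2 1.58 ± 0.19, adjusted p = 1.97e-08) and 1.79-fold higher at 3 months (0.84 ± 0.19, adjusted p = 0.00113). Rapamycin lowered it 2.58-fold in 9mTSCmKO (-1.37 ± 0.19, adjusted p = 7.98e-07) and 1.95-fold in 3mTSCmKO (-0.97 ± 0.19, adjusted p = 1.90e-04). In CON the effect of rapamycin was -0.27 ± 0.19 at 9 months (adjusted p = 0.417), and the difference from TSCmKO passed the test (-1.10 ± 0.27, adjusted p = 0.0116), but not on only the groups compared (adjusted p = 0.1004).

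Ctsd (ENSMUSG00000007891, chr7:142375911-142388038) rose at both ages. Its log2 falls with rapamycin in TSCmKO were smaller than those of Ctsl, a difference between genes that was not tested. Ctsd was at 420.2, 614, 499.8, 544 and 515 CPM in 9mCON, against 699, 865, 1186, 868 and 915 CPM in 9mTSCmKO. Ctsd stood at 974, 821, 778, 814 and 771 CPM in 9mTSCmKO+RM, against 701, 618, 503, 561 and 587 CPM in 9mCON+RM. At 3 months Ctsd was at 463, 492, 457, 555 and 601 CPM in 3mCON, against 1047, 1077, 861, 914 and 921 CPM in 3mTSCmKO. Ctsd stood at 671, 683, 727, 765 and 887 CPM in 3mTSCmKO+RM, against 453, 603, 459, 476 and 519 CPM in 3mCON+RM. The TSCmKO libraries lay above the CON libraries of the same age and treatment without overlap. The rise was 0.81 ± 0.12 at 9 months (adjusted p = 1.63e-06), with 0.91 ± 0.12 at 3 months (adjusted p = 4.15e-07). Rapamycin gave -0.12 ± 0.12 in 9mTSCmKO (adjusted p = 0.454) and -0.37 ± 0.12 in 3mTSCmKO (adjusted p = 0.0235). The lowest 9mTSCmKO library (699 CPM) and the highest 9mTSCmKO+RM library (974 CPM) were both replicate 1, the libraries that stood apart. The small change at 9 months therefore leans on them. Under rapamycin the genotypes still differed by 0.48 ± 0.12 at 9 months and 0.57 ± 0.12 at 3 months (adjusted p = 0.00121). The fall in 3mTSCmKO was lost without replicates 1 or 2 of 3mTSCmKO or of 3mTSCmKO+RM (adjusted p up to 0.0660).

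The cysteine cathepsins Ctsb and Ctsz rose at both ages as well, Ctsb by 0.79 at 9 months and 0.66 at 3 months (adjusted p = 9.34e-06) and Ctsz by 0.45 and 0.36. Ctsb fell with rapamycin in 9mTSCmKO (log2 -0.35, adjusted p = 0.0101), a call that was lost on only the groups compared (adjusted p = 0.106). Ctsb and Ctsz were both higher in TSCmKO under rapamycin at both ages (Ctsb 0.62 ± 0.11 and 0.52 ± 0.11, Ctsz 0.56 ± 0.12 and 0.43 ± 0.12). The call of Ctsz at 3 months was lost without 3mCON replicate 4 or 3mTSCmKO replicate 2 with vehicle (adjusted p up to 0.0597) and without 3mCON+RM replicate 2 under rapamycin (adjusted p = 0.0501). Ctsf, another cysteine cathepsin, moved the other way, with -0.33 ± 0.11 between genotypes at 9 months (adjusted p = 0.0206) and rises with rapamycin in 9mTSCmKO (0.32 ± 0.11, adjusted p = 0.0285) and 3mTSCmKO (0.50 ± 0.11, adjusted p = 9.35e-04). The genotype call of Ctsf was lost without 9mCON replicate 2 (-0.21, adjusted p = 0.125), 9mTSCmKO replicate 4 (0.0821) or 9mTSCmKO replicate 5 (0.0525). Its call with rapamycin at 9 months was lost in 5 of 10 such fits (adjusted p up to 0.140, without 9mTSCmKO replicate 4). Ctsa, the carboxypeptidase that protects neuraminidase, did not pass between genotypes (0.45 ± 0.24 and -0.38 ± 0.24).

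Of the membrane and channel genes, Lamp2 passed in none of the main comparisons. Lamp1, whose promoter carries 4 E-boxes, gave 0.05 ± 0.11 and 0.28 ± 0.11 between genotypes at 9 and 3 months, rose with rapamycin at 9 months in TSCmKO (0.32 ± 0.11, adjusted p = 0.0167) and in CON (0.32 ± 0.11, adjusted p = 0.0428) and gave -0.09 ± 0.11 in 3mTSCmKO. Mcoln1, the calcium channel of the lysosome, was lower in TSCmKO at 9 months with vehicle (-0.25 ± 0.09, adjusted p = 0.0221) and with rapamycin (-0.26 ± 0.09, adjusted p = 0.0266). These calls were lost when single libraries were left out, that of Lamp1 in TSCmKO without 9mTSCmKO replicate 1, 9mTSCmKO replicate 2 or 9mTSCmKO+RM replicate 1 (adjusted p = 0.0662, 0.0521 and 0.0783). That of Mcoln1 with vehicle was lost without 9mCON replicates 1, 2 or 3 or 9mTSCmKO replicate 4 (up to 0.0837). That of Mcoln1 with rapamycin was lost in 7 of 10 fits (up to 0.103, without 9mTSCmKO+RM replicate 4).

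Gaa and Hexa rose after rapamycin in both genotypes at 9 months and in TSCmKO at 3 months, whereas most of the members that passed in TSCmKO fell (13 of 19 at 9 months and 16 of 19 at 3 months). Gaa (ENSMUSG00000025579, chr11:119267887-119285454) was at 194, 231, 252, 295 and 341 CPM in 9mCON, against 431, 468, 361, 429 and 418 CPM in 9mCON+RM. Gaa stood at 148, 254, 254, 226 and 217 CPM in 9mTSCmKO, against 363, 428, 458, 382 and 368 CPM in 9mTSCmKO+RM. At 3 months Gaa was at 263, 278, 268, 296 and 301 CPM in 3mCON, against 302, 414, 339, 344 and 364 CPM in 3mCON+RM. Gaa stood at 335, 440.0, 297, 241 and 312 CPM in 3mTSCmKO, against 409, 457, 461, 512 and 545 CPM in 3mTSCmKO+RM. Rapamycin and vehicle libraries did not overlap in 3 of the 4 pairs of groups, the exception being 3mTSCmKO, where replicate 2 with vehicle lay within the rapamycin range. The rise was 1.82-fold in 9mTSCmKO (log2 0.86 ± 0.14, adjusted p = 1.03e-05), 1.61-fold in 9mCON (0.68 ± 0.14, adjusted p = 0.00114) and 1.47-fold in 3mTSCmKO (0.55 ± 0.14, adjusted p = 0.00308), with 0.33 ± 0.14 in 3mCON (adjusted p = 0.425). The effects in the 2 genotypes differed by 0.18 ± 0.20 at 9 months (adjusted p = 0.650). Between genotypes Gaa gave -0.26 ± 0.14 at 9 months and 0.21 ± 0.14 at 3 months (adjusted p = 0.150 and 0.324).

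Hexa (ENSMUSG00000025232, chr9:59539540-59565109), the alpha subunit of beta-hexosaminidase, which degrades GM2 ganglioside, rose with both genotype and rapamycin. It was at 34.5, 43.1, 42.6, 40.9 and 40.03 CPM in 9mCON, against 77.3, 69.5, 46.8, 50.5 and 51.9 CPM in 9mCON+RM. Hexa stood at 50.9, 58.1, 73.1, 67.3 and 70.3 CPM in 9mTSCmKO, against 132, 113, 90.9, 112 and 111 CPM in 9mTSCmKO+RM. At 3 months Hexa was at 40.4, 37.6, 45.3, 37.6 and 38.4 CPM in 3mCON, against 50.7, 64.2, 51.5, 50.2 and 53.9 CPM in 3mCON+RM. Hexa stood at 56.7, 50.8, 48.0, 54.8 and 48.0 CPM in 3mTSCmKO, against 66.7, 76.0, 78.9, 76.4 and 74.2 CPM in 3mTSCmKO+RM. No genotype pair and no treatment pair overlapped, at either age. Hexa was 1.59-fold higher in TSCmKO at 9 months (0.67 ± 0.12) and 1.29-fold at 3 months (0.37 ± 0.12). Rapamycin raised it by 0.80 in 9mTSCmKO (SE 0.12, adjusted p = 1.15e-06), 0.53 in 3mTSCmKO (SE 0.12, adjusted p = 6.43e-04) and 0.56 in 9mCON (SE 0.12, adjusted p = 0.00123), with 0.44 ± 0.12 in 3mCON (adjusted p = 0.0609). The differences between the rapamycin effects in TSCmKO and CON were 0.25 ± 0.16 at 9 months (adjusted p = 0.415), with 0.09 ± 0.16 at 3 months (adjusted p = 0.889). Hexa had the largest genotype difference of the members under rapamycin at 9 months (0.92 ± 0.12, adjusted p = 1.30e-07).

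Of the other sugar hydrolase and saposin genes, Psap was lower in TSCmKO at 9 months (-0.40 ± 0.12, adjusted p = 0.00661) with 0.22 ± 0.12 at 3 months, a difference between the ages of -0.62 ± 0.16 (adjusted p = 0.0212, lost without either of 2 single libraries). It rose with rapamycin in 9mTSCmKO (0.35 ± 0.12, adjusted p = 0.0204), a call that was lost in 4 of 10 fits that left out 1 library (adjusted p up to 0.130, with a log2 value of 0.23, without 9mTSCmKO replicate 1). Gla fell with rapamycin in 9mTSCmKO (-0.54 ± 0.18), a call that was lost without 9mTSCmKO+RM replicate 3 (adjusted p = 0.0628). Glb1, Naglu and Neu1 (neuraminidase) passed in none of the main comparisons.

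**Figure D4:**
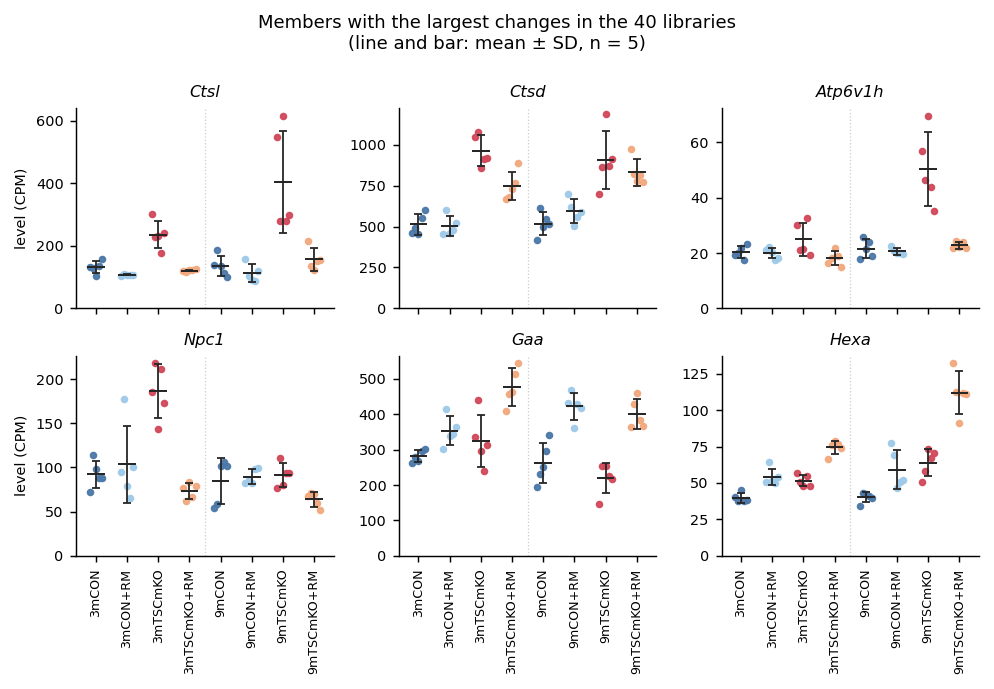
Level (y axis, TMM-scaled CPM from 0) of Ctsl, Ctsd, Atp6v1h, Npc1, Gaa and Hexa in the 8 groups (x axis), with a dot for each library and the mean with its SD over 5 libraries. Ctsl and Atp6v1h peak in 9mTSCmKO and Npc1 in 3mTSCmKO, and Gaa and Hexa are higher in each rapamycin group than in its vehicle group.

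Among the genes of lipid handling, Npc1 (ENSMUSG00000024413, chr18:12189692-12236400), which exports cholesterol from the lysosome, was higher in TSCmKO at 3 months and did not pass at 9 months. Npc1 was at 72.8, 114, 98.1, 87.7 and 88.5 CPM in 3mCON, against 94.7, 177, 79.6, 65.7 and 101 CPM in 3mCON+RM. Npc1 stood at 186, 218, 144, 211 and 173 CPM in 3mTSCmKO, against 76.3, 62.3, 83.3, 66.4 and 79.1 CPM in 3mTSCmKO+RM. At 9 months Npc1 was at 54.0, 58.7, 101, 106 and 102 CPM in 9mCON, against 82.3, 86.4, 82.8, 98.2 and 99.4 CPM in 9mCON+RM. Npc1 stood at 76.6, 111, 80.0, 94.1 and 93.4 CPM in 9mTSCmKO, against 67.9, 70.7, 69.7, 60.2 and 51.4 CPM in 9mTSCmKO+RM. All 3mTSCmKO libraries lay above those of 3mCON and 3mTSCmKO+RM, whereas 9mTSCmKO and 9mCON overlapped. Npc1 was 2.02-fold higher in TSCmKO at 3 months (log2 1.01 ± 0.19, adjusted p = 8.72e-05) with 0.11 ± 0.19 at 9 months (adjusted p = 0.687). The effects differed by -0.91 ± 0.26 (adjusted p = 0.0358), a difference that was lost in 9 of 20 fits that left out 1 library (adjusted p up to 0.0842, without 9mCON replicate 4). Rapamycin lowered it 2.54-fold in 3mTSCmKO (-1.34 ± 0.19, adjusted p = 1.05e-06) and 1.42-fold in 9mTSCmKO (-0.51 ± 0.19, adjusted p = 0.0342), with 0.17 ± 0.19 in 3mCON (adjusted p = 0.918). The effect of rapamycin in 3mTSCmKO minus that in 3mCON was -1.51 ± 0.26 (adjusted p = 4.44e-04). The fall in 9mTSCmKO was lost without 9mTSCmKO replicates 2 or 5 or 9mTSCmKO+RM replicates 4 or 5 (adjusted p up to 0.0919). Lipa, the acid lipase that frees cholesterol from its esters, fell with rapamycin at 9 months in TSCmKO (-0.87 ± 0.20, adjusted p = 0.00100) and in CON (-0.65 ± 0.21, adjusted p = 0.0337). In 9mTSCmKO+RM 3 of 13 macrophage markers were lower than in 9mTSCmKO (all genes: 16.8% lower). Their sums overlapped, at 52.7 to 75.6 CPM against 68.2 to 140.0 CPM in 9mTSCmKO. Macrophage markers in 9mCON are given above, and their part in the Lipa result was not tested. Npc2, the soluble partner of NPC1, rose at 9 months (0.43 ± 0.16, adjusted p = 0.0359). This call was lost without 9mCON replicates 3, 4 or 5 or 9mTSCmKO replicates 1 or 3 (adjusted p up to 0.148) and without the 2 libraries that stood apart.

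Between the genotypes under rapamycin, the share of members that passed at 9 months (20.5%) was near that over all genes. At 9 months 7 were higher and 2 lower in 9mTSCmKO+RM than in 9mCON+RM (all genes: 20.6% changed, 11.3% upwards and 9.33% downwards), and at 3 months 5 were higher and 1 lower (all genes: 10%, 5.67% upwards and 4.36% downwards). The largest rises were those of Hexa, Atp6v0e and Atp6ap2 at 9 months and of Ctsd, Ctsb and Hexa at 3 months, and the falls those of Rragd, Mcoln1 and Flcn already given. Ctsl gave 0.48 ± 0.19 at 9 months (adjusted p = 0.0647), with 0.17 ± 0.19 at 3 months (adjusted p = 0.706) in this comparison. Markers of cell types moved at 9 months as well. Macrophage markers were among the rises (Cd68 1.61, Mpeg1 1.36). Muscle fiber (Pvalb -0.67, Ckm -0.56) and endothelial markers (Pecam1 -0.44, Tie1 -0.41) were among the falls. Their part in the member results was not tested.

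Between 3 and 9 months of age, 11 members were higher and 7 lower in TSCmKO (all genes: 37.4% changed, 19.1% upwards and 18.3% downwards), and 0 members passed in CON in edgeR's test (all genes: 1.02%; 4 members had an unadjusted p under 0.05, and DESeq2 called 0). Leaving out 1 library moved the share of all genes that changed with age in CON between 0.222% and 6.96%, the latter without 9mCON replicate 5, where 2 members passed. Markers of other cell types moved with age in TSCmKO too. All 6 adipocyte markers were lower (5.598 to 17.3 CPM in sum in 9mTSCmKO against 25.1 to 128 CPM in 3mTSCmKO), and of 6 tendon markers 5 were lower and 1 higher (59.3 to 133 CPM against 172 to 462 CPM), both sums without overlap. Lower were also 6 of 8 fibroblast markers (352 to 1201 CPM against 1141 to 1973 CPM), 5 of 7 endothelial, 7 of 12 muscle fiber and 4 of 5 erythroid markers, and their part in the member results was not tested. The largest differences in TSCmKO were rises of Ctsa (1.12 ± 0.25, adjusted p = 5.71e-04), Atp6v1h (1.01 ± 0.14, adjusted p = 1.04e-06) and Atp6ap2 (0.78 ± 0.15, adjusted p = 1.14e-04) and falls of Npc1 (-1.03 ± 0.19, adjusted p = 5.53e-05), Fnip1 (-0.80 ± 0.21, adjusted p = 0.00244) and Psap (-0.64 ± 0.12, adjusted p = 6.42e-05). Without 9mTSCmKO replicate 1 the rise of Ctsa was 0.58 (adjusted p = 0.0126), below those of Atp6v1h and Atp6ap2. With insert size as a term, in a fit that dropped 9mTSCmKO+RM replicate 5 for want of a value, 7 members passed in place of 18, and Ctsa, Atp6ap2 and Fnip1 were not among them. The genotype effect differed between the ages for 5 members (all genes: 4.94%, 3.01% upwards and 1.93% downwards). These were Atp6v1h and Atp6ap2 with larger values at 9 months and Npc1, Atp6v0a1 and Psap with larger values at 3 months. On only the groups compared 2 passed (Atp6v1h and Atp6v0a1), and with insert size as a term 3 (these and Psap). That of Atp6ap2 (0.70 ± 0.21, adjusted p = 0.0468) was lost in 15 of 20 fits that left out 1 library, with adjusted p up to 0.118 (without 9mTSCmKO replicate 3), and with the replicate number as a block. The response to rapamycin differed between the genotypes for 4 members at 9 months (all genes: 4.87%, 2.56% upwards and 2.31% downwards), with Ctsl, Atp6v1h and Atp6v1d lower and Tfe3 higher, of which 1 (Atp6v1h) passed on only the groups compared. It differed for 2 at 3 months (all genes: 3.45%, 1.36% upwards and 2.09% downwards), Npc1 and Atp6v0a1, both lower, whereas on only the groups compared 1 was higher and 10 lower (all genes: 9.18%).

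Counts for members with and without an E-box in the matched promoters are set side by side without a test. Of the 16 members with an E-box, 4 were higher and 2 lower in TSCmKO at 9 months, against 7 higher and 3 lower of the 21 matched members without it, with medians of 0.18 and 0.20. Both shares lay near or above that of all genes (37.9% changed), with 37.5% called among members with an E-box and 47.6% among those without. After rapamycin in 9mTSCmKO 4 were higher and 5 lower with an E-box and 2 higher and 4 lower without it (medians -0.19 and -0.18). The share called was 56.2% with an E-box and 28.6% without it (all genes: 32.6% changed). In 3mTSCmKO 2 were higher and 6 lower with an E-box, against 1 higher and 6 lower without it (medians -0.14 and -0.26). The share called there was also higher with an E-box than without it (33.3%, all genes 23.6% changed). Between genotypes with vehicle the share was lower with an E-box at both ages. Whether these shares differ by more than chance was not tested. The window covers the promoter only, and 7 members without a matched promoter, Atp6v1h, Atp6v1g1 and Npc1 among them, are in neither count.

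Further genes of the pathway were counted from written lists. The shares over all genes beside which these counts stand are those given above for each comparison. Of 9 targets of the MiT/TFE factors outside the lysosome, 4 were higher and 0 lower in TSCmKO at 9 months and 3 higher and 1 lower at 3 months, led at both ages by Gpnmb, a membrane glycoprotein (3.29 ± 0.31 and 1.85 ± 0.30), and Sqstm1, the autophagy receptor p62 (1.56 ± 0.13 and 1.13 ± 0.13). Ppargc1a, the coactivator PGC-1 alpha, fell at 3 months (-1.13 ± 0.34). After rapamycin 3 were lower and 1 higher in 9mTSCmKO, with falls of Gpnmb (-2.16 ± 0.29) and Sqstm1 (-1.06 ± 0.13) and a rise of Uvrag (0.39 ± 0.10). In 3mTSCmKO 4 were lower and 0 higher, with Gpnmb (-2.19 ± 0.30) and Wipi1, which binds forming autophagosomes (-0.88 ± 0.10), falling most. Gpnmb is also abundant in activated macrophages, and of the 13 macrophage markers 2 were higher (Cd68 1.80 ± 0.42, Mpeg1 1.23 ± 0.34) and 1 lower (Cd163 -1.07 ± 0.41) in TSCmKO at 9 months, with summed levels of 68.2 to 140.0 CPM in 9mTSCmKO and 72.7 to 201 CPM in 9mCON. Their part in the result was not tested.

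Among lysosomal hydrolases outside the members, falls outnumbered rises in TSCmKO at 9 months. Of 31 further hydrolase genes, 17 were lower and 8 higher in TSCmKO at 9 months (median -0.31, all genes 18.9% lower and 19.1% higher), with Ctso (-1.11 ± 0.13) and Ctsk (-0.97 ± 0.30), 2 cysteine cathepsins, as the largest falls and Galns, a sulfatase (1.20 ± 0.31), and Ctss (1.11 ± 0.37), a cathepsin of macrophages, as the largest rises. At 3 months 3 were higher and 2 lower (all genes 11.4% and 8.32%). After rapamycin 11 were higher and 8 lower in 9mTSCmKO (all genes 15.8% and 16.8%), with rises of Sgsh (0.77 ± 0.16) and Aga (0.75 ± 0.12) and falls of Ctss (-1.45 ± 0.38) and Lgmn (-0.72 ± 0.16). In 3mTSCmKO 6 were higher and 1 lower (all genes 10.6% and 13%), led by Idua (0.69 ± 0.09) and Sgsh (0.62 ± 0.15). Of 20 further membrane proteins and sorting receptors, 8 were lower and 3 higher in TSCmKO at 9 months against the same shares of all genes, with Laptm4b (-0.83 ± 0.14) and Sort1, the sorting receptor sortilin (-0.72 ± 0.22), falling and the tetraspanin Cd63 (0.93 ± 0.13) rising most. After rapamycin there 7 were higher and 2 lower, Sort1 (1.19 ± 0.22) and Laptm4b (1.07 ± 0.14) leading the rises. Fibroblast, tendon and muscle fiber markers were lower in the same comparison between genotypes, as given above, and the part of other cell types in these counts was not tested.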

How the data were processed

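RNA of EDL muscle from 40 libraries (8 groups of 5) was sequenced by the authors as stranded single-end reads, trimmed with cutadapt 1.9.1 and pseudoaligned with kallisto 0.43.1 to protein-coding mouse transcripts of GRCm38. They split a read that hit several transcripts evenly among these and summed the shares per gene, so that reads common to related genes are divided between them. The authors deposited these estimated counts per gene, held as whole numbers, and TPM values (transcript abundance corrected for length and depth). Estimated counts were tested here and TPM was used only to compare levels between genes.

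Genes with at least 1 CPM in at least 5 libraries were kept (13543 of 22844, holding 99.8% or more of every library's counts). Counts were scaled with TMM factors and fitted with edgeR 4.0.16 in R 4.3.3 by the robust quasi-likelihood method on all 40 libraries with 8 group means, so that all groups share one estimate of the spread. There were 10 pairwise comparisons and 3 differences between effects. P-values were adjusted over all genes tested by the Benjamini-Hochberg method, with calls at an adjusted p under 0.05. SE is the log2 fold change divided by the square root of the F statistic. The procedure was tested on simulated counts.

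The members and gene lists were chosen with earlier results of these data known. Named genes included the MiT/TFE, folliculin and RagC and RagD genes. Their values are printed for genotype with vehicle and for rapamycin in TSCmKO, and only in part for the other comparisons. Also named were up to 6 rises and 6 falls for genotype with vehicle and for rapamycin in TSCmKO, up to 3 each way elsewhere, and up to 2 each way per further list. Members beyond these are named within their role group. Values per library are given for 12 members. Promoters came from RefSeq and gene positions from GENCODE. Of the list genes, 2 symbols were not matched and are not analysed here. A further gene of these lists is not reported here. Alternatives were DESeq2 1.42.0, other scaling factors, no filter on low counts, only the groups compared, a replicate block, insert size as a term and leaving out single libraries. The fit without the 2 libraries that stood apart was chosen after seeing the data. Replicates differed by more than sampling noise. Counts limit the precision of low members, and total counts are given with the results.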

Additional observations from a re-analysis of the deposited data

Results flagged for a closer look

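Levels of the 12 members given per library were searched for libraries far from the others of their group, in 96 sets of 5 libraries, where chance alone flags about 1 in 20. There were 3 such libraries, where the gap to the nearest of the others exceeded 0.71 of the range of the group: 9mTSCmKO+RM replicate 1 for Ctsd (974 CPM), 3mCON+RM replicate 2 for Hexa (64.2 CPM) and 3mTSCmKO+RM replicate 5 for Tfe3 (17.9 CPM).

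Effects that differed between groups by edgeR's test of the difference itself (adjusted p under 0.05) concerned 8 genes in 11 results. The genotype effect at 9 months minus that at 3 months was 0.92 for Atp6v1h, 0.70 for Atp6ap2, -0.62 for Psap, -0.77 for Atp6v0a1 and -0.91 for Npc1 on the log2 scale. The effect of rapamycin in TSCmKO minus that in CON at 9 months was 0.55 for Tfe3, -0.46 for Atp6v1d, -1.07 for Atp6v1h and -1.10 for Ctsl. At 3 months it was -0.62 for Atp6v0a1 and -1.51 for Npc1. In the first of these sets the ages also differ in insert size. A shift that is the same in both genotypes cancels in this difference. One that differs between the genotypes cannot be fully told apart from age.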

How the results depend on the processing

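No call changed its direction under any alternative. Of 122 member calls over the 13 comparisons, DESeq2 and RLE factors kept 122, upper-quartile factors 119, the replicate block 121, no filter on low counts 106, insert size as a term 104 and fits on only the groups compared 92, and 87 passed in every fit that left out 1 library. On only the groups compared, the number of members called was 13 for genotype at 9 months, 21 for genotype at 3 months, 12 for rapamycin in 9mTSCmKO, 2 in 9mCON, 2 in 3mCON, 2 for the difference of the genotype effect between ages, and 1 at 9 months and 11 at 3 months for the difference of the rapamycin effect between genotypes. Without the filter it was 2 for rapamycin in 9mCON and 2 and 1 for the differences of the rapamycin effect at 9 and 3 months. DESeq2 gave 1 for rapamycin in 3mCON and 4 for the difference of the rapamycin effect at 3 months, and upper-quartile factors gave 1 for rapamycin in 3mCON. With insert size as a term, 7 members passed between ages in TSCmKO and 3 for the difference of the genotype effect. Without 9mTSCmKO replicate 1 and 9mTSCmKO+RM replicate 1, chosen after seeing the data, 3 passed for that difference and 66 of 75 calls were kept, the rises of Atp6v0d1, Ctsf, Lamp1 and Psap with rapamycin in 9mTSCmKO being lost. The causes were not tested.

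Leaving out 1 library at a time gave 18 to 24 members for genotype at 9 months, 12 to 15 at 3 months, 14 to 20 for rapamycin in 9mTSCmKO, 17 to 20 in 3mTSCmKO, 3 to 7 in 9mCON and 0 to 0 in 3mCON. The ranges were 7 to 12 and 5 to 6 for genotype under rapamycin at 9 and 3 months, 13 to 19 for age in TSCmKO, 0 to 2 for age in CON (2 without 9mCON replicate 5), 2 to 7 for the difference of the genotype effect and 3 to 6 and 1 to 3 for the differences of the rapamycin effect at 9 and 3 months. Same-numbered libraries did not deviate together (correlations of -0.363 to 0.412, with every pair over 0.1 in 0 comparisons), so that the numbers do not pair the samples; the replicate block gave 21 members for genotype at 9 months, 20 for rapamycin in 9mTSCmKO, 11 for genotype under rapamycin at 9 months, 19 for age in TSCmKO and 4 for the difference of the genotype effect, and the same counts as without it elsewhere. The share of upward calls over all genes moved by more than 10 percentage points for rapamycin in 3mTSCmKO (44.9% to 55.7% with upper-quartile factors), for age in CON (66.7% to 80.0% on only the groups compared and 80.8% with insert size as a term) and for the difference of the genotype effect (60.8% to 76.3% on only the groups compared). Low counts limit Glb1, Gla and Naglu, and 7 members had under 100 counts in at least 1 library.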

Other observations

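Genes that connect amino acids to the Rag GTPases were taken from a further list of Ragulator, Rag and GATOR genes, of which 15 were tested. Of these, 20% changed between genotypes at 9 months and 6.67% at 3 months, below the shares of all genes (37.9% and 19.8%). After rapamycin 33.3% changed in 9mTSCmKO and 26.7% in 3mTSCmKO (all genes: 32.6% and 23.6%). In TSCmKO at 9 months the amino acid sensor Slc38a9 was higher (0.36 ± 0.12) and the GTPase gene Rragb lower (-1.04 ± 0.35), and at 3 months Wdr59 was higher (0.41 ± 0.13). Rapamycin raised Nprl3, a subunit of GATOR1, in all 4 pairs of groups, with log2 fold changes of 0.47 ± 0.10 in 9mTSCmKO, 0.42 ± 0.09 in 3mTSCmKO, 0.42 ± 0.10 in 9mCON and 0.46 ± 0.10 in 3mCON (edgeR adjusted p = 2.32e-04, 8.44e-04, 0.00319 and 0.0120). Depdc5, another subunit of GATOR1, fell in 3mTSCmKO (-0.60 ± 0.13), as did Wdr59 (-0.39 ± 0.13). Lamtor1, the anchor of Ragulator, fell in 9mTSCmKO (-0.52 ± 0.14), as did Slc38a9 (-0.40 ± 0.12).

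Of 11 further V-ATPase isoform and assembly genes tested, 1 was higher and 1 lower in TSCmKO at 9 months (18.2% changed, against 37.9% of all genes). Dmxl2, which codes for rabconnectin-3 alpha, a factor in the assembly of V1 with V0, rose at 9 months (0.98 ± 0.14) and 3 months (0.77 ± 0.14) and fell with rapamycin in 9mTSCmKO (-0.45 ± 0.14), whereas its relative Dmxl1 gave -0.64 ± 0.20 between genotypes at 9 months and 0.64 ± 0.20 with rapamycin.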
